A study of Mus musculus with 14 samples.

Results

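Regions of the mouse genome that carried a peak of PU.1 (gene Spi1) together with a peak of Cebpa or Cebpb, and no peak of 10 other blood transcription factors, were described in Hoxb8-FL cells. They were chosen by the measured peaks: all peaks of 13 lists on 19 autosomes and chromosome X that touched or overlapped were merged, and 5015 of the 121980 merged regions (4.11%) met the rule. They are called PU.1 and C/EBP only regions here, or members. The peaks came from ChIP-seq, which sequences DNA precipitated with an antibody against a chromatin-bound protein. Hoxb8-FL is a mouse progenitor line kept in culture by a conditional Hoxb8 protein. Its labels describe it as LMPP-like, which stands for lymphoid-primed multipotent progenitor, and the growth medium held estradiol and FLT3. Every library came from this line under these conditions, untreated, and the data hold no expression values against which the labelled cell type could be checked. Beside Spi1, Cebpa and Cebpb the factors were Lmo2, Fli1, Tal1, Meis1, Runx1, Gfi1, Erg, Lyl1, Gfi1b and Gata2, with 1 library each and no replicate, so no p-value was computed. A rabbit IgG control library has no peak list used here. Lists ranged from 3217 peaks (Gata2) to 76378 peaks (Spi1), read depth is unknown, and every peak is 400 bp wide with no height.

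PU.1 is an ETS-family transcription factor that binds DNA with a GGAA core and is required for the development of myeloid and B cells. C/EBPα and C/EBPβ are leucine zipper proteins that bind a shared palindromic motif as dimers. C/EBPα is required to form granulocyte progenitors, and C/EBPβ is known for emergency granulopoiesis and for macrophage gene expression. PU.1 and C/EBP factors together are best known as partners on the enhancers and promoters of granulocyte and macrophage genes.

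Promoters show the letters under the peaks. The RefSeq promoter table (GRCm38.p6, the build of the files) gives 250 bases before and 50 bases after each start site, and 180 of its 32585 windows, belonging to 169 genes, held both the Spi1 and a C/EBP midpoint of a member. This is 0.552% of all windows. Motifs were searched on both strands, as GAGGAA or AGGAAGT for PU.1 and as TTGCNNAA or TTNNGNAAT for C/EBP, where N is any base. Of all windows, 32.5% held a PU.1 motif and 19.1% a C/EBP motif. In the sequences that follow, capitals mark every base of a motif found, also where motifs abut or overlap, and positions count from the start site, with -1 the last base before it.

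The first set holds listed myeloid genes whose promoter carried a member. Elane encodes neutrophil elastase (chr10:79886062-79886311, plus strand). Camp encodes the cathelicidin of neutrophil granules (chr9:109849457-109849706, minus strand). Tlr13 encodes an endosomal receptor of bacterial ribosomal RNA (chrX:106143025-106143274, plus strand).
Elane: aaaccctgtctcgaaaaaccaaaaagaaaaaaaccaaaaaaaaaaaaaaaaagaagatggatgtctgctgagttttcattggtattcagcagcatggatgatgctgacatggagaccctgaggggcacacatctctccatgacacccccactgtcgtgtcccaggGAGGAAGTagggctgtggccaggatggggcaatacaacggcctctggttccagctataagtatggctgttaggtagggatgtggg
Camp: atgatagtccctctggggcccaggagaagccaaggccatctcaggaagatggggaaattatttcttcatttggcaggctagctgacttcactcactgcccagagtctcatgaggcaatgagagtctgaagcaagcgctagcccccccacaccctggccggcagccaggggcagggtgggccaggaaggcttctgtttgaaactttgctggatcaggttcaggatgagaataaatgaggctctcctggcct
Tlr13: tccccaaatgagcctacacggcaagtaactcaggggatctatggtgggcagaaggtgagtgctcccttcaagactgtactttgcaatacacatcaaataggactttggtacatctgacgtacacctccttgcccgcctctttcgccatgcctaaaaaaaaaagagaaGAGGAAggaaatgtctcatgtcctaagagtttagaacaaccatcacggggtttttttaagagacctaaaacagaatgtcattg
In Elane the PU.1 motif began at -85, where the Spi1 midpoint also lay, and both PU.1 forms matched there as 1 overlapping run. Its Cebpa and Cebpb midpoints were at -63 and -44, and no C/EBP motif matched. In Tlr13 the PU.1 motif began at -83, among the midpoints of Spi1 at -91, Cebpa at -96 and Cebpb at -82. Its C/EBP motif began at the start site itself, outside the bases shown. Camp held neither motif, with its Spi1, Cebpa and Cebpb midpoints at -236, -215 and -221. The fourth listed myeloid gene, Ccr2, a chemokine receptor of monocytes, had a C/EBP motif at -244 beside a Cebpa midpoint at -250, and its bases are not shown because they lie inside the annotated gene.

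A second set shows 2 further promoters, picked after their values were seen because both genes belong to innate immunity. The 169 genes with such a promoter were not sorted by function, so these 2 do not stand for the rest. Il1b encodes the cytokine interleukin-1 beta (chr2:129371165-129371389, minus strand), and Pglyrp1 a peptidoglycan recognition protein of neutrophil granules (chr7:18884440-18884689, plus strand).
Il1b: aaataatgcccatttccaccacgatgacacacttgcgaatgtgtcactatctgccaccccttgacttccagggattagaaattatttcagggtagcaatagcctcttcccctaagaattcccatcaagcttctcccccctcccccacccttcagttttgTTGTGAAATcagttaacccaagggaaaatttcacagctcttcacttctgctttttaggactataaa
Pglyrp1: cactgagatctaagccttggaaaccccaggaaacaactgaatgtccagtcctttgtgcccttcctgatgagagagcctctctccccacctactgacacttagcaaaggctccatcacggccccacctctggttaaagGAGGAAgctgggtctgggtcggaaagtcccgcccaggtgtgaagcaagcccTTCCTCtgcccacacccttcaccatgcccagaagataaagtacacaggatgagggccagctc
The C/EBP motif of Il1b began at -91, between the Cebpa midpoint at -101 and the Cebpb midpoint at -86, and its Spi1 midpoint was at -51. Pglyrp1 had PU.1 motifs at -113 and -62, with the Spi1 midpoint at -55 and the Cebpa and Cebpb midpoints at -71 and -92.

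A further set shows motifs lying side by side. Among the 180 windows, 29 (16.1%) held both motifs, and 28 of them held at least 1 pair that did not overlap. In 4 of the 28 the pair nearest the midpoints lay at most 20 bases apart, and 3 of these are shown with the bases around them. Klra17 (chr6:129876732-129876761, minus strand) and Klra2 (chr6:131247419-131247448, minus strand) encode lectin-like receptors known as Ly49Q and Ly49B, which myeloid cells carry. Gm42190 (chr3:19954163-19954192, minus strand) is a predicted gene.
Klra17: ggtttcaTTAAGCAATTTCCTCttttcgat
Klra2: gcttttaTTATGCAATTTCCTCtttttgct
Gm42190: ttttacaGAGGAAGTTGTGCAActctggaa
In Klra2 the C/EBP motif abutted the PU.1 motif with 0 bases between. In Klra17 and in Gm42190 the pair nearest the midpoints was 1 base apart, but the other form of a motif also matched in each. In Klra17 this was the longer C/EBP form, which abutted the PU.1 motif, and in Gm42190 the longer PU.1 form, which overlapped the C/EBP motif by 1 base. The C/EBP motif of that pair lay 1.5 bp from a C/EBP midpoint in Klra17, 0 bp in Klra2 and 0.50 bp in Gm42190. The PU.1 motif lay 16.5 bp from the Spi1 midpoint in Klra17, 23.5 bp in Klra2 and 41.5 bp in Gm42190. Klra17 and Klra2 are members of 1 gene family with similar promoters, and reads shared by the copies cannot be told apart here. The fourth pair, at Ccdc22 on chromosome X, is not shown because it lies after the start site.

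Over all 180 windows a PU.1 motif was present in 50.6% (95% interval 43.0 to 58.1), against 60.6% (57.3 to 63.9) of 879 windows with Spi1 only regions. A C/EBP motif was present in 31.1% (24.4 to 38.4), against 36.8% (32.6 to 41.1) of 506 windows with C/EBP only regions. Member windows thus held a C/EBP motif more often than Spi1 only windows, where it was found in 11.4% (9.35 to 13.7). They held a PU.1 motif more often than C/EBP only windows, where it was found in 25.1% (21.4 to 29.1). Over all windows the shares were 19.1% for the C/EBP motif and 32.5% for the PU.1 motif. Both lay above these comparison classes and below the member windows. Both motifs stood in 16.1% of member windows (11.1 to 22.3), against 7.17% (5.55 to 9.08) of Spi1 only windows and 10.5% (7.95 to 13.5) of C/EBP only windows. The last of these intervals overlaps that of the members. In the 1093 windows with other factors besides, 52.9% (49.9 to 55.9) held a PU.1 motif, 21.8% (19.4 to 24.3) a C/EBP motif and 12.5% (10.6 to 14.6) both, and the intervals for PU.1 and for both motifs overlap those of the members. Over all windows 6.38% held both. In 34.4% of member windows (27.5 to 41.9) neither motif was found, against 35.2% of Spi1 only windows, 48.6% of C/EBP only windows, 37.9% of windows with other factors and 54.8% of all windows. Each factor's midpoint lay closer to its own motif. The distances that follow were not limited to the 180 windows, of which 91 held a PU.1 motif and 56 a C/EBP motif. The median distance to the nearest PU.1 motif was 17.5 bp from Spi1 midpoints (n = 117), against 72.5 bp from Cebpa midpoints and 65.5 bp from Cebpb midpoints. The median distance to the nearest C/EBP motif was 14.25 bp from Cebpa midpoints (n = 62) and 25 bp from Cebpb midpoints (n = 63), against 51 bp from Spi1 midpoints (n = 59). Median GC content was 56.0% in the member windows and 53.0% in all windows, and its part in the motif shares was not tested. Intervals here are exact binomial intervals that cover counting error only. Some windows overlap, both those of 1 gene and those of neighbouring genes, so the same motif can be counted more than once. For example, windows of Nubp2 and of Spsb3 held the same pair of motifs.

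The members made up 26.1% (25.5 to 26.8) of the 19195 regions that carried Spi1 and a C/EBP factor; the other 14180 also carried at least 1 of the 10 other factors. Peaks of Spi1 without any of those 10 factors were mostly without C/EBP as well: 5015 of 49694 such regions (10.1%) had one. From the side of C/EBP, 21.3% of 23517 such regions had Spi1. Both shares were higher where more of the 10 other factors were present. With 1 other factor, 52.5% of C/EBP regions had Spi1 and 31.9% of Spi1 regions had C/EBP. With 2 to 3 others the shares were 64.5% and 47.5%, with 4 to 6 others 79.9% and 69.4%, and with 7 to 10 others 87.9% and 91.6%. The members are the first step of that series, and they used 6.57% of all Spi1 peaks, 11.4% of all Cebpa peaks and 11.5% of all Cebpb peaks.

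Most members carried both C/EBP factors. Cebpa and Cebpb peaks stood together in 3309 members (66.0%, 64.7 to 67.3), Cebpb alone in 1023 (20.4%) and Cebpa alone in 683 (13.6%). The share with both was 57.2% (56.5 to 57.9) in the 18502 C/EBP only regions and 75.6% (74.9 to 76.3) in the 14180 regions with further factors, so the members lay between them. Where only 1 C/EBP factor was found, it was Cebpb in 60.0% of members (57.6 to 62.3), close to 58.4% and 61.2% in the other classes, whose intervals overlap that of the members. A member held 2 peaks in 1706 cases, 3 peaks in 3303 cases and 4 peaks in 6 cases, and its median width was 464 bp (400 to 1175 bp).

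**Figure D1:**
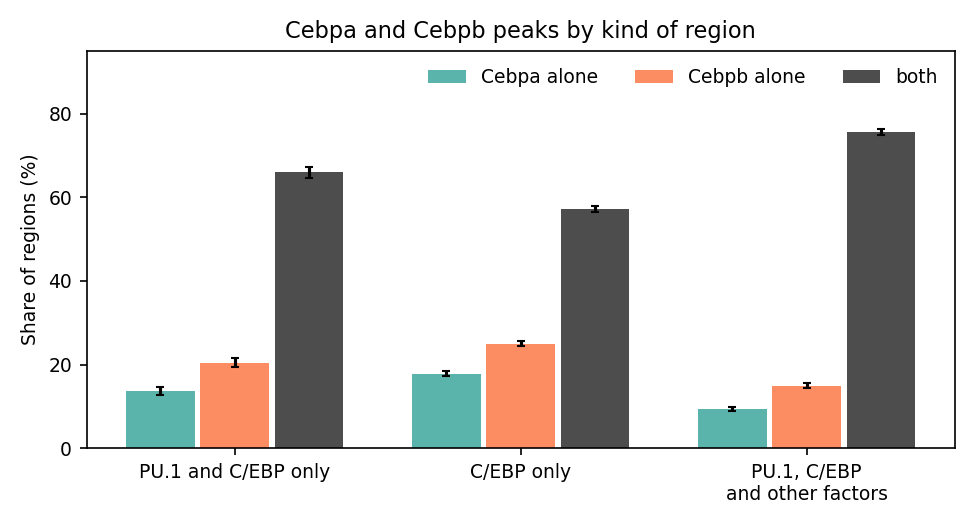
Share of regions (%, y axis) with Cebpa alone, Cebpb alone or both, for PU.1 and C/EBP only regions, C/EBP only regions and regions with PU.1, C/EBP and other factors; bars are shares and error bars exact 95% binomial intervals. The bar for both is 66.0% in the PU.1 and C/EBP only regions, between 57.2% in C/EBP only regions and 75.6% in regions with other factors.

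The lone C/EBP peaks sat late in their lists. The files give no score and do not say what the order of their lines means, so this is a description of position only. Cebpa peaks of members with Cebpa alone lay in the first 50% of the Cebpa lines in 3.95% of cases (27 of 683), against 57.7% of the Cebpa peaks in members with both. For Cebpb the shares were 5.77% (59 of 1023) with Cebpb alone and 60.8% with both. The same held in C/EBP only regions, where the first 50% of lines held 4.04% of Cebpa peaks without Cebpb and 5.77% of Cebpb peaks without Cebpa. Spi1 peaks did not split this way: the first 50% of the Spi1 lines held 53.9% of those beside Cebpa alone, 48.0% of those beside Cebpb alone and 51.8% of those beside both. Across classes, the first 50% of the Spi1 lines held 51.3% (49.9 to 52.7) of the Spi1 peaks of members, against 37.9% (37.4 to 38.3) in Spi1 only regions and 73.3% (72.6 to 74.0) in regions with other factors. Cebpa gave 48.5% in members, against 37.5% in C/EBP only regions and 61.7% with other factors, and Cebpb gave 47.8%, against 39.3% and 60.2%.

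Within a member, the Spi1 midpoint and the nearest C/EBP midpoint lay close together. The median distance was 52 bp, the quartiles were 21 and 115 bp, and 49.3% of members had them within 50 bp. The rule joins peaks of 400 bp, so it bounds the distance, which reached at most 400 bp, and 14.2% of members were over 200 bp. Regions with other factors had quartiles of 20, 50 and 105 bp. With Cebpa alone the median was 62 bp and with Cebpb alone 64 bp, against 46 bp with both, where the nearer of 2 midpoints is taken. To Cebpa itself and to Cebpb itself the medians were 57 bp each. The C/EBP midpoint had the higher coordinate in 2419 members, the lower in 2540 and the same in 56. These counts take no account of strand or of the direction of a motif, so they do not bear on how the factors are arranged. The Cebpa and Cebpb midpoints of members with both were nearer still, with a median of 13 bp and 92.0% within 50 bp.

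**Figure D2:**
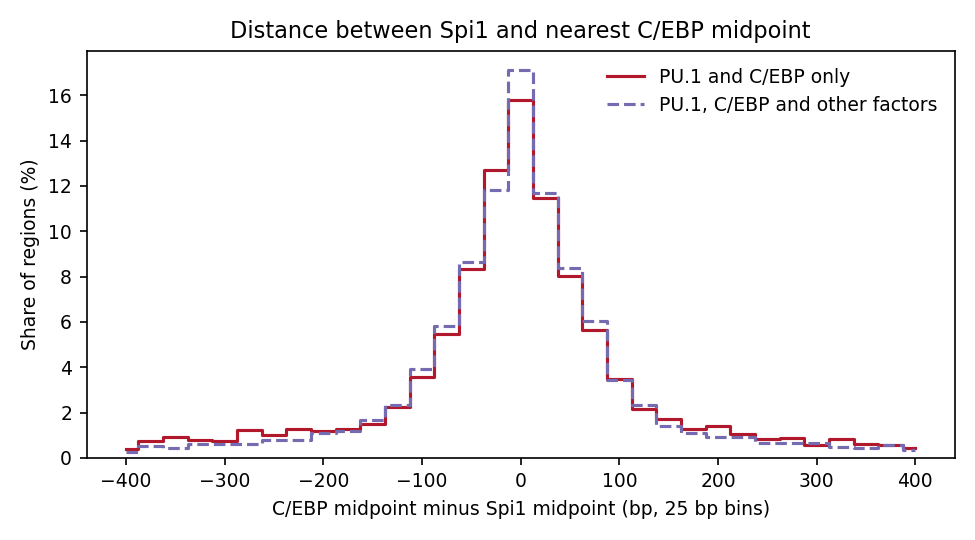
C/EBP midpoint minus Spi1 midpoint (x axis, bp, in bins of 25 bp) against the share of regions (%, y axis), with a solid line for PU.1 and C/EBP only regions and a dashed line for regions with other factors. Both lines peak at 0 bp and fall off alike on either side; 49.3% of PU.1 and C/EBP only regions lie within 50 bp.

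The nearest peak of any of the 10 other factors lay at a median of 5531 bp from a member (quartiles 1756 and 15168.5 bp). It was within 100 bp of 73 members and within 1 kb of 816 (16.3%), most often as an Lmo2 peak (201) or a Fli1 peak (160). Just outside the rule were 2617 regions with Spi1, C/EBP and exactly 1 other factor, which was Lmo2 in 919, Fli1 in 908, Meis1 in 323 and Runx1 in 178. Lmo2 is a bridging protein of the Scl complex and Fli1 an ETS factor like PU.1, and they have the longest lists among the 10. In these regions the other peak overlapped the nearest Spi1 or C/EBP peak by a median of 376 bp, and in 32 of them by 100 bp or less.

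Members lay more often by gene boundaries than regions with Spi1 or C/EBP only, and less often than regions with other factors. The midpoint was within 1 kb of a boundary of a protein-coding gene in 10.6% of members (9.73 to 11.5). The share was 7.80% (7.55 to 8.05) in Spi1 only regions, 8.80% (8.40 to 9.22) in C/EBP only regions and 16.0% (15.3 to 16.6) with other factors. Within 1 kb of an annotated start site the shares were 8.24% in members, against 5.25%, 6.33% and 13.2% in those classes. Inside a gene body lay 54.0% of members (52.6 to 55.4), and the other classes were at 55.1%, 53.4% and 54.0%. Exons and introns were not analysed here. Members outside genes lay a median of 19.0 kb from the nearest one, against 24.5 kb, 24.7 kb and 15.9 kb, and 8.34% of members were over 100 kb away. Among members, those with midpoints over 200 bp apart were by a boundary in 14.3% of cases (11.8 to 17.1), against 8.74% (7.65 to 9.92) of those within 50 bp.

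**Figure D3:**
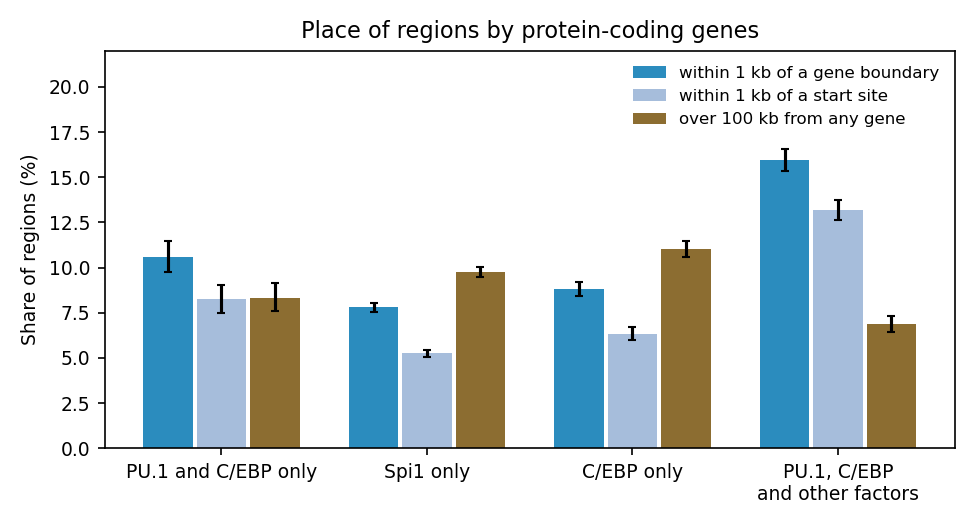
Share of regions (%, y axis) within 1 kb of a gene boundary, within 1 kb of a start site, and over 100 kb from any protein-coding gene, for 4 classes of region; error bars are exact 95% binomial intervals. PU.1 and C/EBP only regions are at 10.6% by a boundary, above Spi1 only (7.80%) and C/EBP only (8.80%) regions and below regions with other factors (16.0%).

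Along the chromosome, 8.91% of members (8.14 to 9.74) had a region with 10 or more factors within 10 kb, of which the genome held 2831. This was 6.30% in Spi1 only regions, 7.83% in C/EBP only regions and 11.1% in PU.1 and C/EBP regions with other factors but fewer than 10 in all. Another member lay within 10 kb of 12.1% of members. The share of merged regions that were members ran from 3.40% on chromosome 8 to 5.24% on chromosome X.

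A locus was taken as a gene body with 50 kb either side. Of the 98 genes on 7 myeloid lists, 55 had a member in the locus (56.1%, 45.7 to 66.1), against 32.9% of the 21631 protein-coding loci, with a median of 1 member in these loci and 0 over all loci. The median gene of these lists is 11.3 kb long, against 17.3 kb over all genes. Members made up 88 of the 1586 merged regions in those loci (5.55%, 4.47 to 6.79), against 4.11% genome-wide. In the loci of B cell genes this share was 5.8% (3.20 to 9.52). It was 4.25% (2.40 to 6.91) for stem and multipotent progenitor genes and 4.11% (2.26 to 6.79) for housekeeping genes. The T cell, erythroid, liver, neuron and muscle lists lay below the genome-wide share. Neighbouring genes share members, the lists were chosen for this line's lineages, and the intervals of single lists are wide.

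The shares of the 7 myeloid lists ranged from 37.5% to 75%, with overlapping intervals. Fc and paired receptors of myeloid cells had a member in 9 of 12 loci, cytokine receptors of blood in 10 of 16, pattern recognition receptors and their adaptors in 9 of 16, and the phagocyte oxidase in 4 of 6. Monocyte and macrophage genes had one in 8 of 16 loci, and myeloid transcription regulators in 10 of 20. Neutrophil granule proteins had one in 6 of 16, a share (37.5%) near the 32.9% of all loci. Outside the myeloid lists, stem and multipotent progenitor genes had a member in 10 of 18 loci (55.6%), B cell genes in 9 of 15 (60%) and housekeeping genes in 10 of 20 (50%). These shares lie within the range of the myeloid lists, so a share above that of all loci was not particular to myeloid genes. T cell genes had 3 of 14, erythroid genes 4 of 14, neuron genes 5 of 16, muscle genes 4 of 16 and liver genes 1 of 16.

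**Figure D4:**
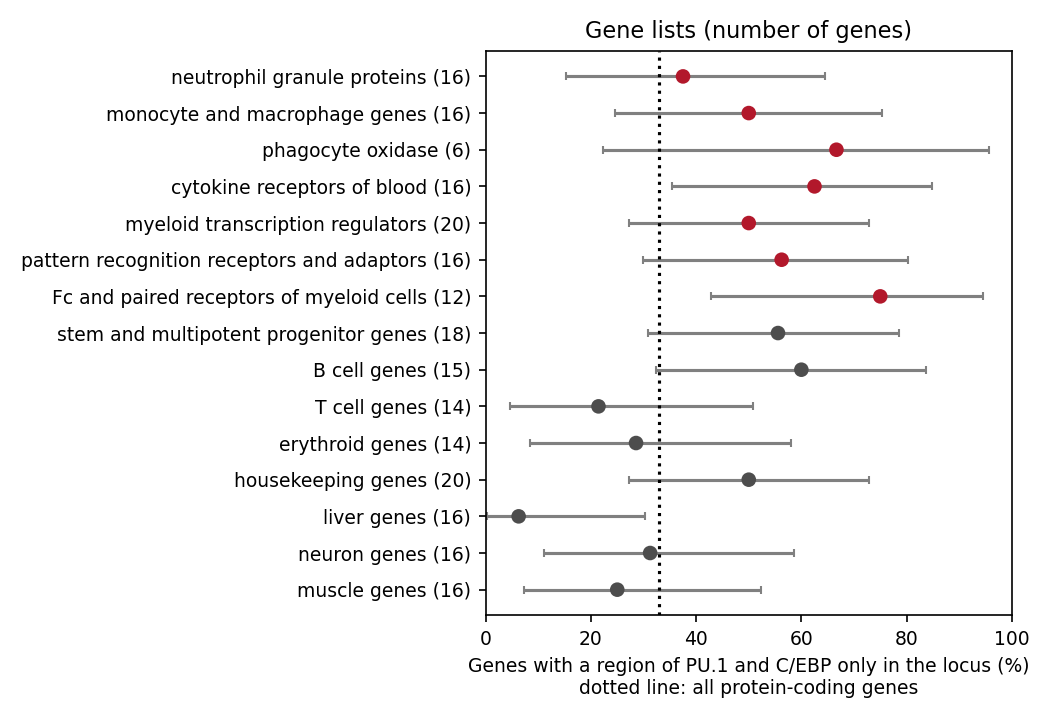
Share of genes (%, x axis) whose locus holds a PU.1 and C/EBP only region, for 15 gene lists (y axis, with the number of genes); red points are myeloid lists, grey points other lists, and bars exact 95% binomial intervals. The 7 red points lie at or above 37.5%, right of the dotted line at 32.9% for all protein-coding genes, as do B cell, stem and progenitor and housekeeping genes, and the other grey points lie left of it. The intervals of all red points but those of cytokine receptors and of Fc and paired receptors include 32.9%.

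Among granule proteins each of the 6 loci held a single member. At Elane the member covered chr10:79886027-79886467 (441 bp), with its Spi1 midpoint 22 bp from Cebpa, and it is the same member that fell in the locus of Prtn3, the gene of proteinase 3 next to it. At Camp the member covered chr9:109849471-109849891, with midpoints of Spi1 and Cebpb 15 bp apart, and it was 1 of only 7 merged regions in the locus. Ctsg, the gene of cathepsin G, had its member 44.3 kb below the gene and nearest to Mcpt4, a mast cell protease gene. Mpo and Ms4a3 had the other members of this list. No member lay in the loci of Ltf, Lcn2, Ngp, Mmp8, Mmp9, Chil3, S100a8, S100a9, Lyz2 and Bpi, which encode proteins of the granules or cytosol of neutrophils and related cells. The locus of Chil3 held 0 merged regions of any kind, and the other 9 held 4 to 20.

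Monocyte and macrophage genes had up to 5 members a locus. Mrc1, the macrophage mannose receptor, had 5 among 21 regions. They lay 37.2 kb and 0.731 kb upstream of its 5′ end, 15.4 and 42.8 kb inside the gene, and 149.9 kb from the 5′ end beyond it. The tightest of them had Spi1 and Cebpb midpoints 8 bp apart (chr2:14244591-14245017). Ccr2 had 3 members, 30.2 kb upstream, at the 5′ end, and 5.85 kb into the gene. Itgam, the integrin CD11b, had 2 members inside the gene, 26.7 and 47.9 kb from its 5′ end, and was chosen after its values were seen. Csf1r, the receptor of macrophage colony-stimulating factor, had 2 members, 38.1 and 33.1 kb below the gene and nearest to Pdgfrb. Loci without a member included those of Cd14, Fcgr1, Cd68, Ly86, Marco, Lyz1 and Mpeg1, of which Ly86 had 38 merged regions and 4 members nearest to it that lay farther away.

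Of the phagocyte oxidase, Rac2, the small GTPase of the complex, had 2 members, 32.8 and 35.0 kb above the gene and nearest to Cyth4. Cyba (p22phox) and Ncf4 (p40phox) had 1 each. The loci of Cybb (gp91phox) and Ncf1 (p47phox) held none.

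Among cytokine receptors, Tnfrsf1a and Tnfrsf1b, the receptors of tumour necrosis factor, had 3 members each. In the Tnfrsf1a locus, chr6:125334360-125334811 and chr6:125345559-125346008 tied as tightest, with Spi1 and nearest C/EBP midpoints 50 bp apart. In the former, taken for its lower coordinate, the Cebpa and Cebpb peaks stood among the first 2.17% and 1.53% of their lists. It lay 15.1 kb upstream of the 5′ end. The latter had Cebpa without Cebpb, with the Cebpa peak at 52.9% of its list. Csf3r, the receptor of granulocyte colony-stimulating factor, was chosen for its known role; it had 1 member, 0.192 kb inside its 5′ end, with Cebpa and Spi1 midpoints 24 bp apart. Loci without a member included those of Csf2ra, Il3ra, Il7r, Kit and Epor, receptors of early myeloid, lymphoid and red cell growth factors among them.

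Among transcription regulators, Irf8, which directs monocyte and dendritic cell fate, had 3 members that lay in a row between 30.5 and 32.6 kb downstream of its 5′ end. Egr2, a zinc finger factor of macrophages, had 3 members at 36.8 and 15.5 kb upstream and 18.3 kb downstream. Cebpa had 2 members 31.3 and 35.8 kb above its own gene, and the nearest region of 10 or more factors lay 2.87 and 0.45 kb from them. Spi1 had a member 1.10 kb below its gene and another inside it. Each holds a Spi1 peak because the rule requires one. The gene was chosen because its product is one of the factors mapped.

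Among receptors of microbial products, Tlr13 had 4 members among 16 regions, at 12.3, 3.79 and 0.089 kb upstream and 21.0 kb downstream of its 5′ end. Clec4e, a lectin receptor of mycobacterial glycolipid also called Mincle, had 3 members below the gene, among the neighbouring lectin genes Clec4d and Clec4n. Ticam1, the adaptor TRIF, had members 0.133 kb below and 0.259 kb above the gene, at either end. Fcgr2b, the inhibitory IgG receptor, had 2 members, 1 of them inside the gene with its Spi1 peak in the first 2.49% of lines. Fcer1g, the shared Fc receptor gamma chain, and Sirpa, an inhibitory receptor of macrophages, had 2 each. The tightest member of Fcer1g had midpoints 10 bp apart, and that of Sirpa 114 bp.

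**Figure D5:**
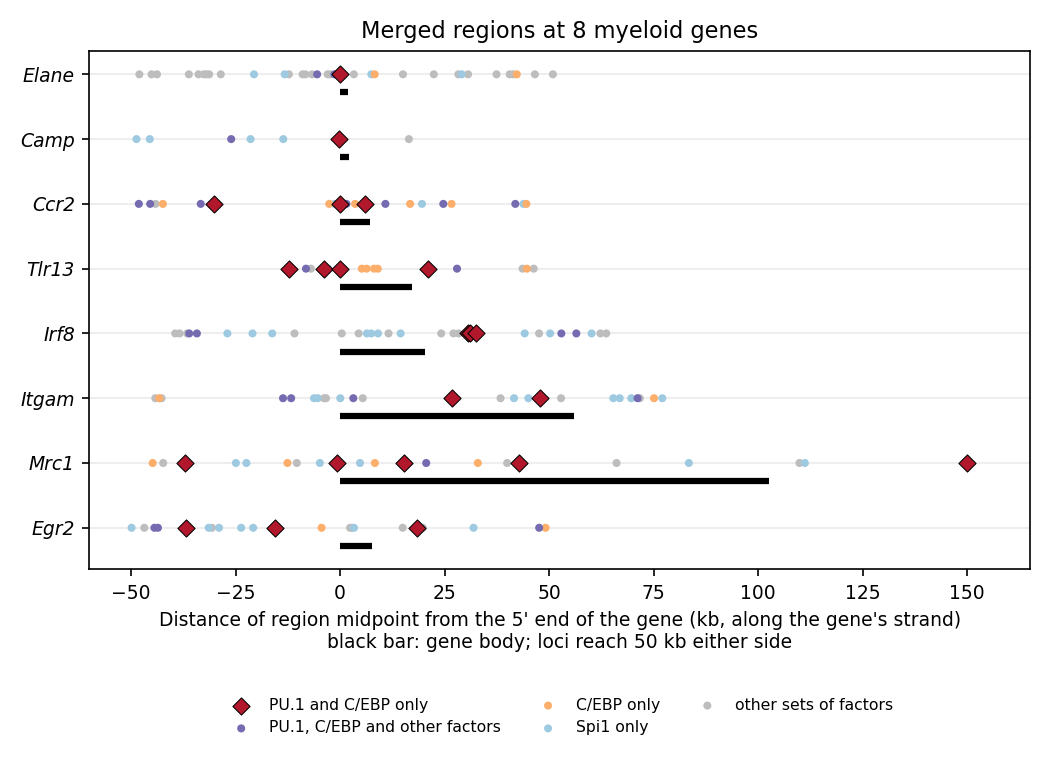
Merged regions at 8 myeloid genes, by distance of the region midpoint from the 5′ end of the gene (x axis, kb, along the gene's strand); rows are genes, diamonds are PU.1 and C/EBP only regions, circles other classes, and black bars gene bodies. Elane and Camp each have 1 diamond at the 5′ end, Tlr13 has 4, Mrc1 has 5 spread over its long body and both sides, and the 3 at Irf8 lie together beyond the gene.

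Other lists held members at regulators of progenitors and B cells. Lmo2 had 4 members in its locus, and Cd34, a surface protein of progenitors, and Erg had 2 each. Ebf1, the B cell specification factor, had 5, and Blnk and Cd79a, of the B cell receptor pathway, had 2 each. Of the T cell genes Cd5, Il2ra and Notch1 had 1 each, and of the erythroid genes Epb42, Klf1 and Tal1 led with 1 each. Among housekeeping genes Pgk1 had 3 members, which also lay in the locus of Tlr13, and it was the nearest gene to none of them. Gusb and Rab7 had 2 each, and the promoters of the housekeeping genes Polr2a and Vcp also held a member. Apob among liver genes, Dlg4 (2), Gad2 and Grin1 among neuron genes, and Myod1, Tnnc1 and Tnni3 among muscle genes completed the leading genes.

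By nearest gene, members were spread widely: 3518 protein-coding genes were nearest to at least 1, and 2585 of them to exactly 1. Cited2, a transcriptional co-regulator, was nearest to 12 members, all outside the gene, the farthest 1426 kb away, in a stretch with few genes. Akap13, an anchoring protein of protein kinase A, and Arhgap26, a GTPase-activating protein, were nearest to 10 each. Auts2, Pde4d, Pik3r1, Ptprc, Zeb2 and Zfp608 were nearest to 8 each and Ankrd44 to 7. Ptprc encodes CD45, the surface phosphatase of white blood cells, and Zeb2 a repressor needed for monocytes and dendritic cells. Members were 15.9% of the 44 regions nearest to Ankrd44, 13.9% of the 72 nearest to Akap13 and 5.88% of the 136 nearest to Pde4d. Members are 4.11% of all regions, and all 10 genes lie above that share, having been picked for their number of members. Of these 10 genes only Cited2 (2.45 kb) and Pik3r1 (87.5 kb) are shorter than 100 kb, against a median of 17.3 kb over all protein-coding genes.

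Of the 6 members with 4 peaks, the most in any member, the 5 narrowest spanned 1003 to 1159 bp, at Prkca, Atp8a1, Dgkz and Ndrg1 (inside the gene) and 4.41 kb below Zfp692. The 5 farthest from any protein-coding gene lay 1380 to 1525 kb away, with Pcdh17 (2 members), Cited2 and Slc10a2 among the nearest genes. Even there the midpoints of Spi1 and the nearest C/EBP were between 17 and 117 bp apart.

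MicroRNA genes give a further view of the members. Of 1005 hairpins in the RefSeq table, 88 (8.76%) had a member within 10 kb and 33 within 3 kb. Blood microRNAs without a member were not counted, so whether those of blood lie by members more often than others was not tested. The mature sequences of 8 are shown, chosen after their distances were seen and for their known roles in blood cells, with the seed (bases 2 to 8) in capitals.
miR-155-5p: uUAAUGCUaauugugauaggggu
miR-142a-3p: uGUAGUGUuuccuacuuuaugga
miR-21a-5p: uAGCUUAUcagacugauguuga
miR-223-3p: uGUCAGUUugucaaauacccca
miR-29a-3p: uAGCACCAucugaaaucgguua
miR-29b-3p: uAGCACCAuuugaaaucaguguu
let-7a-5p: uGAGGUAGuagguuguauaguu
let-7f-5p: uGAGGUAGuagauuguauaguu
The hairpin of miR-155, a microRNA of activated lymphocytes and macrophages, lay inside a member on chromosome 16 (chr16:84713879-84714279) whose Spi1 and Cebpa midpoints were 1 bp apart. That of miR-142, which is abundant in all white blood cells, lay 1.51 kb from a member with Spi1 and Cebpb (chr11:87758442-87759037), the same member that fell in the locus of Mpo. miR-21a had a member 2.75 kb upstream. miR-223, a microRNA of granulocytes, had one 6.58 kb upstream. miR-29a and miR-29b share the seed AGCACCA. Their genes Mir29a and Mir29b-1 stand in 1 cluster, with a member 2.73 and 2.38 kb upstream of the hairpins. let-7a and let-7f share the seed GAGGUAG. Their genes Mirlet7a-1 and Mirlet7f-1 likewise share a member, 2.19 and 2.54 kb upstream. The distances hold for these gene copies only.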

How the data were processed

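Hoxb8-FL ChIP-seq libraries of 13 factors, 1 each, were used. Per the labels' protocols, fixation took 10 min in formaldehyde, at 0.4% for some libraries and 1% for others without saying which, and chromatin was sonicated for 7 min, 30 s on and 30 s off. The tools named per the submitters' processing notes were MACS2, Bowtie2 and bedtools, with mm10 and GRCm38. The peak threshold, versions and any use of the IgG control were not given in the sources used here. Deposited lists hold peak positions in base pairs, with no count, score or height. Depth is unknown and can change how many peaks a list holds, so an absent peak of the 10 other factors is an absence from a list, not shown to be an absence of binding. The part of list length in lone Cebpa or Cebpb peaks was not tested.

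The 3 lines off chromosomes 1 to 19 and X were left out, which left 279955 peaks. Peaks that touched or overlapped by 1 bp were merged with Python 3.11.15, numpy 2.4.6, pandas 2.3.3 and scipy 1.17.1, and the steps were tested on simulated peaks. Coordinates count from 1. Genes (21631 protein-coding), promoters and microRNAs came from RefSeq tables of GRCm38.p6. A promoter entry was found for 17247 of the protein-coding genes, and all 231 entries of the 15 gene lists (222 genes) were found. The gene table has neither strand nor exons, so distances are to either boundary, with "below" and "above" meaning lower and higher coordinates, unless a strand is given in the promoter table. No genome was used, so bases outside the promoter windows were not analysed here. Members and gene lists were chosen with earlier results of these data known.

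By rule the text names, in each list, the 3 genes with the most members in the locus (ties by alphabet), for 4 lists also the genes without a member, the 10 genes nearest to the most members, each named myeloid gene's member with the closest midpoints, and the 5 members with the most peaks and the 5 farthest from genes. Names outside the rule are marked. Some genes the rule takes are not reported here. The 95% intervals of shares are exact binomial ones (Clopper-Pearson). They cover counting error only, not the variation of another culture or precipitation. Alternatives changed the merging, the lists used, the windows, the loci and the motifs.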

Additional observations from a re-analysis of the deposited data

How the results depend on the processing

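The number of members stayed within 1.5 times 5015 when only peaks overlapping by 200 bp were merged (4470), when peaks up to 200 bp apart were (5288), when no other factor was allowed within 1 kb (4199), and with each of the 10 other lists left out in turn, from 5021 without Lyl1 to 5928 without Lmo2. It was 2421 with every list kept to its first 50% of lines and 3309 where both Cebpa and Cebpb were required. With the first 50% of lines, 72.6% of members had both factors and the median distance between Spi1 and the nearest C/EBP midpoint was 46 bp, against 58.5 bp when peaks up to 200 bp apart were merged. The share by a gene boundary was 6.92% within 500 bp, 28.0% within 5 kb and 15.4% with all annotated genes, which also put 63.3% of members inside a gene. A region with 10 or more factors lay within 5 kb of 5.10% and within 50 kb of 27.4%. Loci with 10 kb either side held a member for 32 of the 98 myeloid genes (32.7%) and 16.2% of all protein-coding genes, and loci with 100 kb either side for 69 (70.4%) and 46.9%, so the order of both held. At 10 and 100 kb, stem and progenitor genes (38.9% and 61.1%) and B cell genes (26.7% and 66.7%) also stayed above all protein-coding genes. The order of some other lists changed: at 100 kb housekeeping genes had a member in 17 of 20 loci (85%), and T cell and muscle genes (50% each) passed all protein-coding genes. With no other factor allowed within 1 kb, the myeloid count was 47, and that of granule proteins 2 in place of 6. Of 45 counts for single lists under these alternatives, 30 were within 1.5 times the reported one. The core GGAA stood in 100% of the member windows and in 96.0% of all windows, and the core GCAA in 90.0% and 84.6%, so these shorter cores told little apart. Where either midpoint in a window sufficed, an alternative added after seeing the data, PU.1 and C/EBP motifs were in 45.1% and 26.3% of windows. No paired analysis was possible because each factor has 1 library. The unknown depth and the absence of a second library limit each share.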

Other observations

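Promoters of 169 genes held both midpoints of a member, among them those of the housekeeping genes Polr2a and Vcp. These genes were not sorted by function, so the share with immune roles is not known. Some further genes of innate immunity and antigen handling were picked from them after their values were seen. They were Il1rn, the antagonist of the interleukin-1 receptor, Aqp9, a glycerol channel of neutrophils, Casp4, an inflammatory caspase, and Ly75, an endocytic receptor of dendritic cells. In Aqp9 the Spi1 midpoint lay at -128 and the Cebpa and Cebpb midpoints at -62 and -23, with neither motif. In Casp4 all 3 midpoints lay between -64 and -43 over its 2 windows, again with neither motif. The windows of 2 start sites of Il1rn held the same member and the same C/EBP motif. Counted from 1 start site, the Cebpa and Cebpb midpoints lay at -28 and -29 and the motif at 16. From the other, they lay at -108 and -109 and the motif at -64.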
